A study of Mus musculus with 4 samples.

Results

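The genes described here, all but Slc12a2, make, sense or break down prostaglandins. Expression was measured on arrays of whole mouse kidney, from Usp2 knockouts (Usp2-KO) and from wild-type littermates (WT). The genes were chosen by name and not by a rule on measured values, though with earlier results of these data known. The 10 genes are the cyclooxygenases Ptgs1 and Ptgs2, the terminal synthases Ptges and Ptgds, the receptors Ptger1 to Ptger4, the degrading enzyme Hpgd, and the ion cotransporter gene Slc12a2. Of these, 9 had a row of their own on the array, 1 row each, among the 19934 genes tested. The annotation used here pairs no row with Ptgs1, and that gene was not analysed here. All mice were C57BL6/N males aged 12 weeks, housed under 12 h of light and 12 h of dark and killed at Zeitgeber time 12, which the submitters give as the daily peak of Usp2 expression. The groups differed in genotype alone: WT, or Usp2-KO, which lacks the ubiquitin-specific protease USP2. How the Usp2 gene was disrupted is not given in the sources used here. From 6 pairs of littermates, RNA of 3 mice at a time was mixed, giving 2 WT and 2 Usp2-KO pools, and each Usp2-KO pool corresponds to the WT pool of its littermates, so the 4 arrays average over animals and show no spread between single mice.

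Prostaglandins are lipid signals made on demand from arachidonic acid, a fatty acid that phospholipases release from membranes. A cyclooxygenase turns it into prostaglandin H2, terminal synthases turn that into prostaglandin E2, D2 and others, and each product acts on receptors of neighbouring cells before a dehydrogenase inactivates it. In the kidney, cyclooxygenase-2 is found in the macula densa, where it takes part in the control of renin, and in interstitial cells of the medulla, and prostaglandin E2 acts on blood flow and on the transport of salt and water in the thick ascending limb and the collecting duct.

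The regions around the starts of Ptgs2 and Ptges are shown because these genes encode enzymes that act in sequence on the way to prostaglandin E2 and are the 2 members that were higher in both Usp2-KO pools than in both WT pools. The sequences are RefSeq's, build GRCm38.p6, and run 5′ to 3′ on the gene's own strand from 250 bases before a transcript start, as placed in RefSeq's promoter table, to 30 bases after it. For Ptgs2 this is the outer end of the gene model, while for Ptges it lies 27723 bases inside it, so that longer transcripts begin elsewhere. The Ptgs2 window lies at chr1:150099781-150100060 on the plus strand, and its capitals mark the E-box CACGTG, the DNA word that circadian CLOCK and BMAL1 proteins are known to bind. The Ptges window lies at chr2:30903268-30903547 on the minus strand, and its capitals mark the GC box GGGCGG.
Ptgs2: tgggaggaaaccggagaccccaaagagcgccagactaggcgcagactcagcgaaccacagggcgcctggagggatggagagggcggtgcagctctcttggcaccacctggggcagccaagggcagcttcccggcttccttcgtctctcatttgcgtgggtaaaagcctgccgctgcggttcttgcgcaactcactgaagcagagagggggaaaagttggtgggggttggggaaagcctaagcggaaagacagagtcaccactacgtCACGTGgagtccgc
Ptges: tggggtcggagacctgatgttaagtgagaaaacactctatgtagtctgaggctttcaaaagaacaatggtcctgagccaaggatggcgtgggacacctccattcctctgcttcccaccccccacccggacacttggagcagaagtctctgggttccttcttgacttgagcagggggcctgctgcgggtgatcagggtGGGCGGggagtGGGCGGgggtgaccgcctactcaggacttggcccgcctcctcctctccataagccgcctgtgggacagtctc

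A window was found for 7 of the 9 measured members, all except Ptger1 and Slc12a2, and these were searched on both strands for exact motifs. The E-box CACGTG occurred in 1 of the 7, Ptgs2, where it begins at base 17 after that start, against 6.79% of all 32851 windows of this length. TGACG, a partial form of the cAMP response element, was also found in Ptgs2 alone among the 7, on the other strand from base 14, where it overlaps the E-box, against 19.9% of all windows. The complete element TGACGTCA was in 0 of the 7 windows and in 1.74% of all. The GC box GGGCGG occurred in 5 of 7 (Ptgs2, Ptges, Ptger3, Ptger4 and Hpgd), against 34.7% of all windows, and TATAAA in Hpgd alone, against 13.1%. These are matches of letters, and no binding was measured.

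Array values are on the log2 scale, where 1 unit is a 2-fold difference, and the signal of one gene's probes cannot be set against that of another's. Array medians lay between 7.44 and 7.46 and no arrays were identical. The labels were checked on Usp2 itself, which stood at 11.63 and 11.71 in the WT pools and at 7.65 and 7.60 in the Usp2-KO pools (limma adjusted p = 2.8e-08). It was the 1 gene of 19934 past the threshold of adjusted p under 0.05, and 1815 genes had an unadjusted p under 0.05. Kidney markers were high in all arrays, with Umod at 13.36 to 13.45 and Slc12a3 at 13.08 to 13.19, and the median log2 value per array was 5.78 to 5.94 for 6 adrenal markers and 5.03 to 5.26 for 7 mast cell markers. The files hold no detection calls, so these low values cannot be told from background. Of the 7 measured adipocyte markers 6 were lower in Usp2-KO kidney (median -0.34), and their median was 7.09 in Usp2-KO pool 1 against 7.68 to 7.78 in the other 3 arrays. Of 8 urothelial markers 7 were lower (median -0.14), and of 12 immune markers 8 (median -0.02). Median differences were -0.01 for mast cell markers, -0.09 for adrenal markers and 0.01 for the 9 kidney tubule and glomerulus markers. For fibroblast and interstitial markers 5 of 10 were higher, and for inner medulla markers 3 of 6, among which the urea transporter gene Slc14a2 stood apart, at 9.70 and 9.68 in WT and 9.26 and 9.18 in Usp2-KO kidney (-0.47, limma adjusted p = 0.242, and 0.00199 with the littermate block). Its part in the values that follow was not tested.

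No measured member passed the adjusted threshold by limma. The member with the smallest p was Ptgs2, at 0.17 log2 units (1.12-fold) above WT, and the 9 differences ranged from -0.14 for Ptger2 to 0.17 for Ptgs2. At an unadjusted p under 0.05 the count was 1 of 9, Ptgs2, where 9.11% of all genes were called. At the adjusted threshold it was 0 of 9, with a lowest adjusted p of 0.521, where 0.00502% of all genes were called. With the littermate pools as a block, 0 of 9 members were past the adjusted threshold (background 0.768%) and 0 of 9 had an unadjusted p under 0.05 (background 9.22%). The pools of the genotypes did not overlap for 3 of 9 members, Ptgs2, Ptges and Ptgds, where 38.9% of all genes did not overlap. For 2 of these the Usp2-KO pools were above (19.8% of all genes) and for 1 below (19.1%). In all, 7 members had a higher mean in Usp2-KO kidney and 2 a lower one, with a median of 0.03 against -0.01 over all genes tested. An exact two-sided permutation test of 2 arrays against 2 cannot give a p below 0.333 and therefore tests nothing here. In whole kidney, fewer cells of a type and less RNA per cell cannot be told apart.

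**Figure D1:**
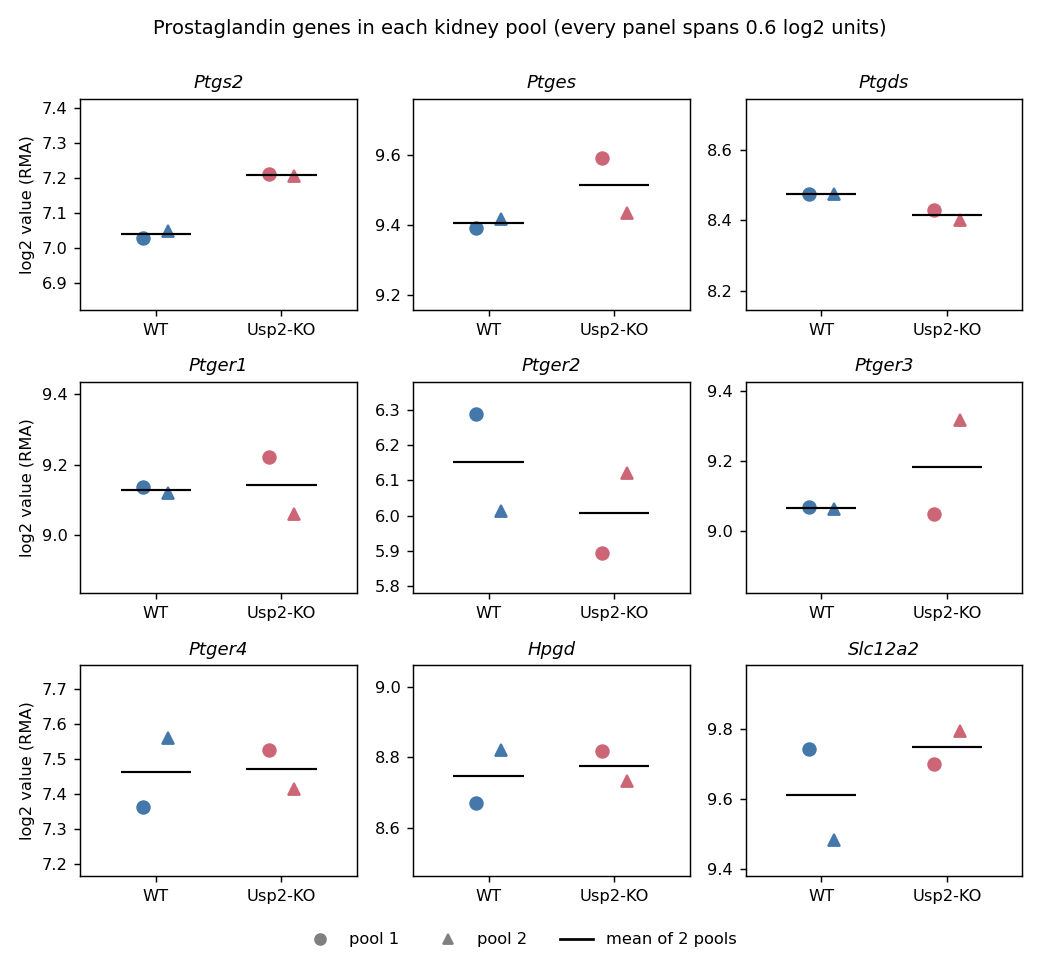
Log2 expression values (RMA) of the 9 measured genes in each kidney pool, by genotype, with circles for pool 1, triangles for pool 2 and a line at the mean of 2 pools; every panel spans the same range. Ptgs2 stands at 7.03 and 7.05 in WT and at 7.21 in both Usp2-KO pools, while the pools of Ptger2 and Slc12a2 lie far apart within a genotype.

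Ptgs2 encodes cyclooxygenase-2, the inducible enzyme that commits arachidonic acid to prostaglandin synthesis. Its values were 7.03 and 7.05 in WT pools 1 and 2 and 7.21 and 7.21 in Usp2-KO pools 1 and 2. The genotypes were therefore apart. All 4 values lay below the all-gene medians of 7.70 to 7.71 per array. Without detection calls, whether Ptgs2 stood above background is not known. The gap from pool to pool was 0.021 in WT and 0.006 in Usp2-KO kidney, against median gaps of 0.074 and 0.085 over all genes. The difference was 0.17 (SE 0.07, 95% confidence interval 0.01 to 0.33), with an unadjusted limma p of 0.0379 and an adjusted p of 0.521. Of all genes, 7.26% had a smaller p, and 88.0% a smaller difference in either direction. The littermate pools differed by 0.18 and 0.16, so both pairs had Ptgs2 at about the same distance. With the littermate block its unadjusted p was 0.0724. The difference was between 0.16 and 0.18 whichever pool was left out.

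Ptges encodes the inducible microsomal synthase that makes prostaglandin E2 and is often induced together with cyclooxygenase-2. It measured 9.39 and 9.42 in the WT pools and 9.59 and 9.43 in the Usp2-KO pools. Both Usp2-KO values lay above both WT values, but pool 2 did so by little, and the littermate pools differed by 0.20 and 0.015. The difference of the means was 0.11 (SE 0.08, 95% confidence interval -0.07 to 0.29; limma adjusted p = 0.727). It was 0.03 with Usp2-KO pool 1 left out and 0.19 with the other Usp2-KO pool left out. In RefSeq's gene table the Ptges locus overlaps the non-coding gene Gm52550 and the pseudogene Gm13400, and whether the array's probes tell them apart was not tested.

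Ptgds encodes the lipocalin-type synthase of prostaglandin D2. It was at 8.475 in both WT pools and at 8.43 and 8.40 in the Usp2-KO pools. The pools of each genotype lay close together, and Usp2-KO minus WT was -0.05 and -0.07 in the littermate pools. The difference of -0.06 (SE 0.07, 95% confidence interval -0.22 to 0.10; limma adjusted p = 0.852) was smaller than that of 53.8% of genes.

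The receptors of prostaglandin E2 showed no common direction. Ptger1 encodes EP1, which raises cell calcium, and Ptger3 encodes EP3, which lowers cyclic AMP and opposes vasopressin in the distal nephron. Ptger2 and Ptger4 encode EP2 and EP4, which raise cyclic AMP. The groups overlapped for all 4 genes, and 0 of the 4 had an unadjusted limma p under 0.05 (lowest adjusted p = 0.745).

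Ptger1 measured 9.14 and 9.12 in the WT pools and 9.22 and 9.06 in the Usp2-KO pools, so the Usp2-KO pools lay on either side of WT. The difference was 0.01 (95% confidence interval -0.17 to 0.19), and 88.6% of genes had a larger one. It was -0.07 with Usp2-KO pool 1 left out and -0.02 after repeated quantile normalization. Ptger2 measured 6.29 and 6.01 in WT and 5.89 and 6.12 in Usp2-KO kidney. Ptger2 thus lay near the adrenal markers' medians of 5.78 to 5.94, and whether it stood above background is not known. Its difference was -0.14 (95% confidence interval -0.39 to 0.11), but WT pools alone differed by 0.278, a ratio of 1.21. The littermate pools differed in opposite directions, by -0.40 and 0.11, and without WT pool 1 the difference was -0.0045.

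Ptger3 measured 9.07 and 9.06 in WT and 9.05 and 9.32 in Usp2-KO kidney. Usp2-KO pool 2 alone stood apart, by 0.25 from its littermates, while pool 1 differed by -0.02. The difference of 0.12 (95% confidence interval -0.10 to 0.33) was 0.25 when Usp2-KO pool 1 was left out and -0.02 when pool 2 was. Ptger4 measured 7.36 and 7.56 in WT and 7.53 and 7.42 in Usp2-KO kidney, 4 interleaved values with a difference of 0.01 (95% confidence interval -0.19 to 0.21). It was -0.09 without WT pool 1 and 0.11 without WT pool 2.

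Hpgd encodes the dehydrogenase that begins the breakdown of prostaglandin E2. Its values were 8.67 and 8.82 in WT and 8.82 and 8.73 in Usp2-KO kidney, and the Usp2-KO values fell within the range of WT. The difference was 0.03 (95% confidence interval -0.15 to 0.21; limma adjusted p = 0.942), with 0.15 and -0.09 in the littermate pools, and it was -0.04 without WT pool 1 and 0.11 without WT pool 2.

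Slc12a2 encodes NKCC1, a cotransporter that brings sodium, potassium and chloride into cells. It is not an enzyme or receptor of the pathway. It measured 9.74 and 9.48 in WT and 9.70 and 9.79 in Usp2-KO kidney, and WT pool 2 was the low value. The difference of 0.135 (95% confidence interval -0.08 to 0.35; limma adjusted p = 0.716) was 0.26 without WT pool 1 and 0.006 without WT pool 2, and the littermate pools differed by -0.04 and 0.31.

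**Figure D2:**
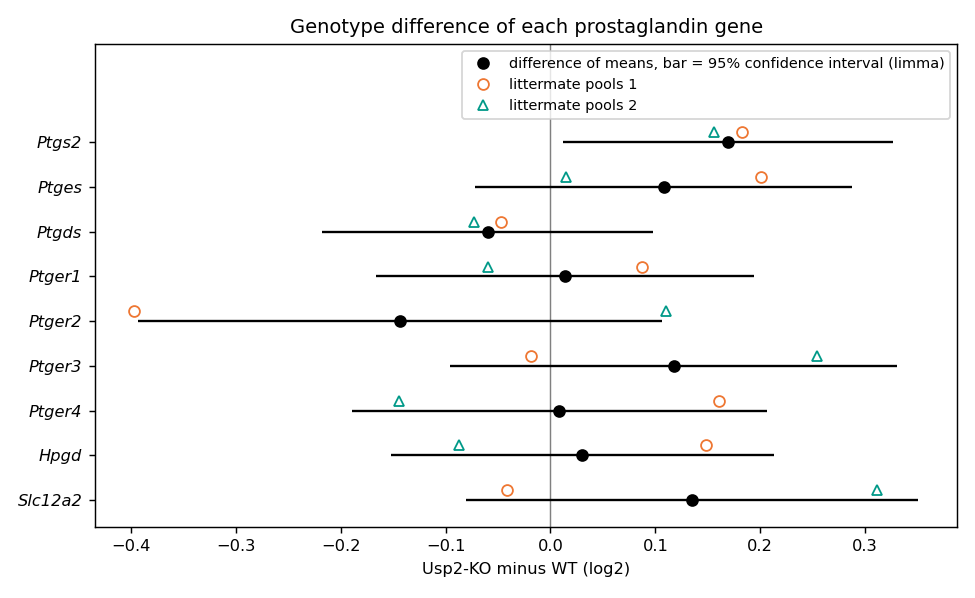
Usp2-KO minus WT on the log2 scale for the 9 measured genes, with the difference of means and its 95% confidence interval from limma (black) and the differences within littermate pools 1 (circles) and 2 (triangles). The interval of Ptgs2, 0.01 to 0.33, is the 1 that leaves out 0, and the littermate pools fall on opposite sides of 0 for 6 genes.

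The littermate pools thus had the same sign for 3 of 9 members, or 33.3%, where it was 51.5% over all genes tested. These were the same 3 whose genotypes did not overlap. Such genes must have the same sign in both pairs, so this is not a second check. For 7 of the 9 the gap between pools of a genotype was larger than the difference between the genotype means. The share over all genes was not computed. Genes whose genotypes overlap have so large a gap by arithmetic, and only 38.9% of all genes did not overlap. The count is therefore no trait of the members. The gap lay above the all-gene median for 4 members in WT (Ptger2, Ptger4, Hpgd and Slc12a2) and for 6 in Usp2-KO kidney (all but Ptgs2, Ptgds and Hpgd). The plot of differences against mean value places all 9 inside the cloud of other genes.

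**Figure D3:**
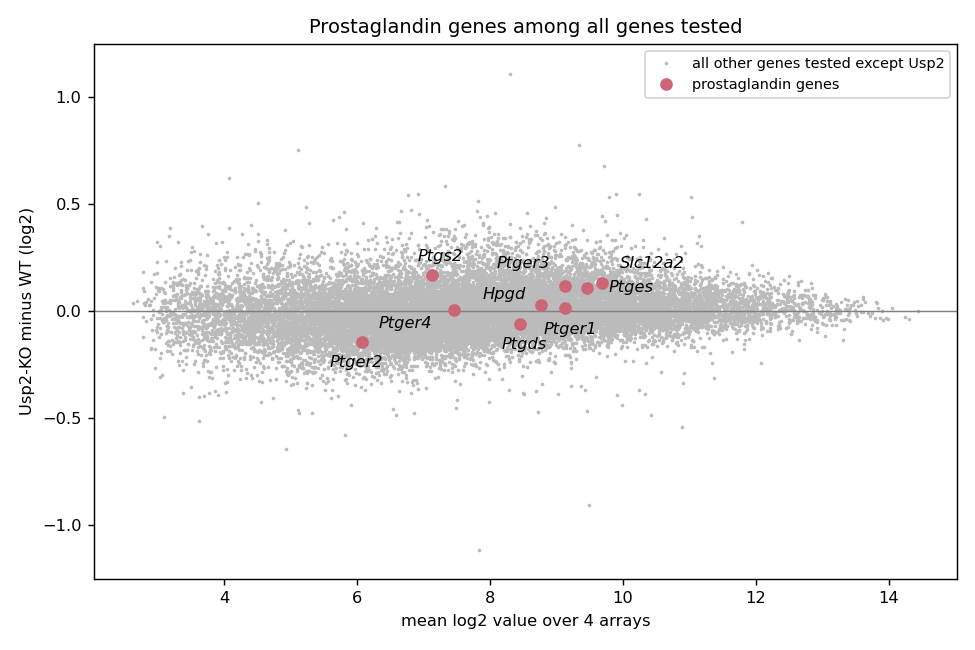
Usp2-KO minus WT against the mean log2 value over 4 arrays for all genes tested except Usp2 (grey) and the 9 prostaglandin genes (red, named). Slc12a2 is counted among the 9. The members lie between -0.14 and 0.17, within the spread of other genes of similar signal.

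Beyond the members, 133 measured genes of the wider pathway in 8 lists were examined in the same fit. None passed the adjusted threshold by limma (lowest adjusted p = 0.301). At an unadjusted p under 0.05, 4 were higher and 7 lower, where 5.22% and 3.88% of all genes were called in those directions, and together the 11 are 8.27% of the 133. With the littermate block 1 of 133 passed, Akr1c18, where 0.768% of all genes passed.

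The other synthases of prostanoids were mostly lower. Of 10 measured, 9 were lower in Usp2-KO kidney, with a median of -0.11, where 52.5% of all genes were lower. The median was -0.04 in the pool 1 littermates (6 lower, 3 higher) and -0.18 in the pool 2 littermates (8 lower, 2 higher). Only 4 of the 10, or 40%, had the same sign in both, where it was 51.5% over all genes. None of the 10 passed, and 1 had an unadjusted p under 0.05: Prxl2b, which encodes a synthase of prostaglandin F, at 7.96 and 7.99 in WT and 7.71 and 7.76 in Usp2-KO kidney (-0.24, limma adjusted p = 0.383). The remaining prostaglandin E synthases did not move together, as Ptges2 differed by -0.12 and Ptges3, which also serves as a chaperone partner, by 0.09. The prostacyclin synthase gene Ptgis differed by -0.07, the thromboxane synthase gene Tbxas1 by -0.13 and the haematopoietic prostaglandin D synthase gene Hpgds by -0.07. Hpgds, about as low in signal as Ptger2, spread widely between pools, from 5.89 to 6.27 within Usp2-KO kidney.

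Of 6 measured genes of other prostanoid receptors and Ptgfrn, a partner of the prostaglandin F receptor, 5 were lower, with a median of -0.04 and none at an unadjusted p under 0.05. The prostaglandin D receptor genes Ptgdr2 and Ptgdr differed by -0.15 and -0.14 (limma adjusted p of 0.618 and 0.718). The receptors for prostaglandin F (Ptgfr, -0.05), prostacyclin (Ptgir, -0.04) and thromboxane (Tbxa2r, -0.04) lay closer to WT.

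Genes that release arachidonic acid went in both directions, with 7 of 22 higher, 15 lower and a median of -0.06. The secreted phospholipase genes Pla2g2a (-0.22) and Pla2g5 (-0.24) were lower and Plaa, a phospholipase-activating protein gene, was higher (0.25), each with an unadjusted limma p under 0.05 and an adjusted p of 0.441 to 0.459. The values of Pla2g2a, 5.82 to 6.13, were about as low as those of Ptger2 and may not stand above background. Plaa measured 9.24 and 9.36 in WT and 9.44 and 9.66 in Usp2-KO kidney. Downstream of the receptors and beside Hpgd, genes of prostaglandin transport and breakdown had 9 of 16 higher and a median of 0.03. Akr1c18, which encodes an aldo-keto reductase known for inactivating progesterone, was at 9.71 and 9.53 in WT and at 9.19 and 9.32 in Usp2-KO kidney, a difference of -0.37 (SE 0.09, limma adjusted p = 0.301). Its littermate pools differed by -0.53 and -0.21, and it passed limma with the littermate block, at an adjusted p of 0.033. Ptgr2, a prostaglandin reductase that acts after Hpgd, was at 9.37 and 9.46 in WT and 9.62 and 9.68 in Usp2-KO kidney (0.23, limma adjusted p = 0.398), and the related reductase gene Zadh2 differed by 0.11.

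**Figure D4:**
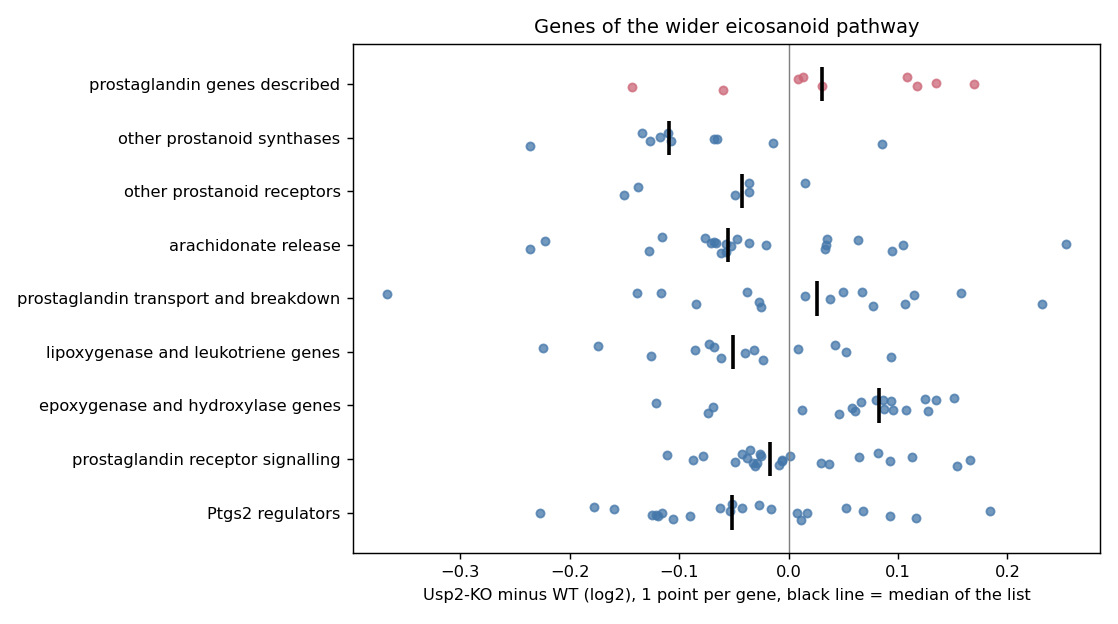
Usp2-KO minus WT on the log2 scale for each gene (points) of the 9 prostaglandin genes (red) and of 8 lists of the wider pathway (blue), with black lines at the medians. Slc12a2 is counted among the 9. Medians run from -0.11 for the other synthases to 0.08 for the epoxygenase and hydroxylase genes, and all points lie between -0.37 and 0.25.

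The other branches of arachidonic acid metabolism differed in sign. Of 18 measured epoxygenase and hydroxylase genes, cytochrome P450 enzymes and hydrolases that form and clear other arachidonic acid products in the tubule, 15 were higher, with a median of 0.08, where 47.5% of all genes were higher. The median was 0.06 and 0.05 in the littermate pools 1 and 2. None had an unadjusted p under 0.05, with Cyp2j9 (0.15), Ephx2 (0.13) and Cyp4a12b (0.12) closest. These P450 genes belong to families of near-identical copies whose probes may be shared. Of 14 lipoxygenase and leukotriene genes 10 were lower (median -0.05), among them Alox15, a lipoxygenase gene, by -0.22 (limma adjusted p = 0.538).

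Among genes that carry the receptors' signal onward, 9 of 24 were higher and the median was -0.02. Gnai3, an inhibitory G protein gene of the kind EP3 uses, measured 8.75 in both WT pools and 8.88 and 8.96 in Usp2-KO kidney (0.17, limma adjusted p = 0.538), and the closely related Gnai1 differed by 0.15. Among known regulators of Ptgs2, 8 of 23 were higher and the median was -0.05, where 47.5% of all genes were higher. The part of these genes in the values of Ptgs2 was not tested. Tnf, a cytokine gene, differed by -0.23, and Fosl1 and Fos, subunits of the AP-1 factor, by -0.18 and -0.16. Creb1, whose product binds the cAMP response element, differed by 0.18. None of these passed (limma adjusted p of 0.439 for Tnf and 0.487 for Creb1).

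Markers of cells in which these genes are known to act were set beside the members. Of 8 listed macula densa and juxtaglomerular markers 6 were measured, and the renin gene Ren1 was not among these. Of the 6 measured 5 were higher (median 0.07), with Nos1 and Robo2 higher by only 0.01 each, while Bmp3 was lower (-0.14). The summed level of the 6, as log2, was 12.51 to 12.59 in WT and 12.64 to 12.68 in Usp2-KO kidney. From 83.3% to 85.2% of this sum was Slc12a1, a gene of the whole thick ascending limb that was named after its values were seen. Without it the sum over the other 5 markers was 9.87 and 9.92 in WT and 9.93 in both Usp2-KO pools. Pappa2, a protease gene of the macula densa, measured 6.16 and 6.13 in WT and 6.48 and 6.45 in Usp2-KO kidney. The difference was 0.32 (SE 0.07, limma adjusted p = 0.286, and 0.0726 with the littermate block). Both Usp2-KO pools lay above both WT pools, as for 19.8% of all genes. These values were about as low as those of Ptger2 and may not stand above background. Pappa2 has 3 rows on the array, and the others differed by -0.04 and 0.12. Of 10 principal cell markers 8 were higher (median 0.05, summed level 13.76 to 13.83 in WT and 13.84 to 13.91 in Usp2-KO kidney). Of 8 smooth muscle and pericyte markers 7 were higher (median 0.10, summed level 12.08 to 12.20 and 12.20 to 12.25). Over all genes 47.5% were higher. In littermate pools 1 and 2 the medians were 0.14 and 0.025 for principal cell markers and 0.17 and 0.02 for smooth muscle markers. For the macula densa and juxtaglomerular markers they were 0.06 and 0.05. The part of these cell types in the values of Ptgs2 was not tested.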

How the data were processed

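The authors deposited log2 expression values made with RMA, per the submitters' processing notes, which correct background, equalise the distributions of the arrays and summarise each probe set, and this can shrink small differences. Per the labels' protocols, target was prepared from 300 ng of pooled total RNA for an Affymetrix array; software versions and row filters are not given in the sources used here. The table has 28270 rows, of which 21780 carry 1 gene symbol, 1617 several and 4873 none in the platform annotation. The row with the highest mean stood for a gene, and no filter on signal was used. The genotypes were compared by limma (version 3.58.1, R 4.3.3; Usp2-KO minus WT, genotype only, Benjamini-Hochberg over 19934 genes, 8.87 total degrees of freedom), and the fit was tested on simulated data. Array number limits the precision. In the simulated data the fit called 1.8% of changed genes at a true difference of 0.25 log2 units and 71% at 0.5. A count of 0 members therefore does not show that small differences are absent. Alternatives were the littermate block, other priors, filters, row choices and normalizations, a threshold of 0.10, and each pool left out. The series' design text keeps littermates together between pools, so the pool numbers were taken as pairs, although the deviations of same-numbered pools correlated at -0.121 over all genes. In the block fit limma drew each gene's SE strongly to a common value (90.6 prior degrees of freedom, against 6.87 without the block). A call with the block therefore rests mostly on the size of a difference, and little on how well its pairs match. Members and gene lists were chosen with earlier results of these data known. Named genes were all members, Usp2, up to 5 genes of smallest p in each pathway list, any measured synthase or receptor, and up to 3 genes of smallest p in each marker list. Slc12a1, Ren1, Nos1 and Robo2 were named outside this rule. Exact motif matches were counted in RefSeq's promoter table. Figures were drawn with matplotlib 3.10.9.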

Additional observations from a re-analysis of the deposited data

How the results depend on the processing

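The count of members past the threshold was 0 under all 15 alternatives, and the lowest adjusted p of any member in them was 0.403 (limma). Over all genes 153 passed with the littermate replicate block, 18 with an intensity trend, 7 with genes above the median signal, 7 with a mean log2 value of at least 6, 2 at an adjusted p under 0.10, and 1 to 2 with a pool left out. Of the pathway genes, 1 passed with the littermate replicate block and 0 otherwise. The block changed no call of a member. Pairing the pools crosswise, added after the data were seen, gave 1 gene over all, 0 members and 0 pathway genes. Of 132 differences of single members under these settings, 125 kept their sign and 7 changed it. The blocks, priors, filters, row choices and threshold cannot change a member's difference, as each member has 1 row. Many of the 125 were therefore fixed in advance. Only the other normalizations and the left-out pools could change a sign, and all 7 changes came from these. Ptger1 was at -0.017 after repeated quantile normalization and between -0.068 and 0.095 with a pool left out. With a pool left out Ptger3 ran from -0.016 to 0.251, Ptger4 from -0.089 to 0.106 and Hpgd from -0.0445 to 0.1055. The lone pool left in a genotype was assumed to vary like the pools of the other. The filter above the median removed Ptgs2, Ptger2 and Ptger4, which have no value there. The cause was not tested. With 2 arrays a genotype, the half-width of the members' confidence intervals was 0.16 to 0.25 log2 units, and 1 of the 9 intervals left out 0.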
